A study of Mus musculus with 12 samples.

Results

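The renin-angiotensin system was examined in mouse aorta through 7 genes measured by RNA sequencing: the angiotensin-processing peptidases Ace, Enpep, Lnpep and Mme, the receptor Agtr1a, the receptor-associated gene Agtrap and the renin-binding gene Atp6ap2. They were chosen by symbol, not by their values, from a set of 10 genes of the system, as those with a row in the deposited table, which formed 12287 genes in all. Agt, Agtr1b and Agtr2, the other genes of that set, are not analysed here. The 12 libraries came from aortae of C57BL/6 mice aged 7 weeks, 6 from mice fasted for 24 h and 6 from mice labelled control, all dissected free of fat before RNA was extracted. The comparison asks how a fast of 24 h alters the RNA of the aortic wall. The labels do not say whether each sample is a separate animal or a pool, and the p-values therefore speak only of the variation among these 12 samples, some of it possibly technical.

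In this system the protease renin cuts angiotensinogen into angiotensin I, and angiotensin-converting enzyme (ACE) trims that peptide to angiotensin II, which constricts vessels through its type 1 receptor on smooth muscle. Further peptidases shorten or destroy the active peptide, and ACE and neprilysin also break down bradykinin, a dilator. In a large artery ACE sits mainly on the endothelium, while the type 1 receptor belongs mainly to the medial smooth muscle.

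The peptidases among the 7 share a catalytic zinc site made of His, Glu, any pair of residues and His, which was located by translating the listed transcripts. The coding bases of that site are shown because Ace and Enpep, the peptidases whose RNA changed, both depend on it, and because both listed Ace transcripts carry both Ace sites. Capitals mark the 15 bases of the zinc motif and the lower case letters the 6 bases on either side, read 5′ to 3′ on the coding strand from GENCODE M21 transcripts (GRCm38).
Ace, N-terminal site: gtacacCACGAGATGGGCCACgtgcag
Ace, C-terminal site: gcgcacCACGAAATGGGCCACatccag
Enpep: gttgccCACGAACTTGTACACcagtgg
Lnpep: attgctCACGAACTGGCACATcagtgg
Mme: attggaCATGAAATCACACATggattt
The N-terminal Ace site lies at chr11:105972904-105972930 and the C-terminal site at chr11:105985088-105985114, both within coding exons on the plus strand. The Mme site lies at chr3:63362015-63362041 on the plus strand, within a coding exon, whereas the Enpep and Lnpep sites, on the minus strands of chromosomes 3 and 17, each span a junction of coding exons.

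Values are FPKM, which divide the fragments of a transcript by its length and by the size of the library, so levels can be set beside each other per length between genes. Transcripts were added up per gene, and each difference is that of fasted over control aortae in log2(FPKM + 1), ± its SE from limma, a linear model fitted over all genes. That scale understates the change of low genes. Of the 7 genes, Ace and Agtrap rose and Enpep fell at an adjusted p of 0.05, 2 up and 1 down (42.9%). Among all 12063 genes tested, 31.7% passed, 13.8% higher and 17.9% lower in fasted aortae, and a count of 3 in 7 is near that background. The count was 1 without fasted replicate 1, fasted replicate 5 or control replicate 5, and 0 with adipocyte marker levels as covariates, where 3 of the 7 had an unadjusted p under 0.05 in limma. All 7 passed the filter on low values. Their median log2 difference was 0.14, against -0.02 over all tested genes. None of the 7 had groups free of overlap, which 17% of all tested genes had.

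**Figure D1:**
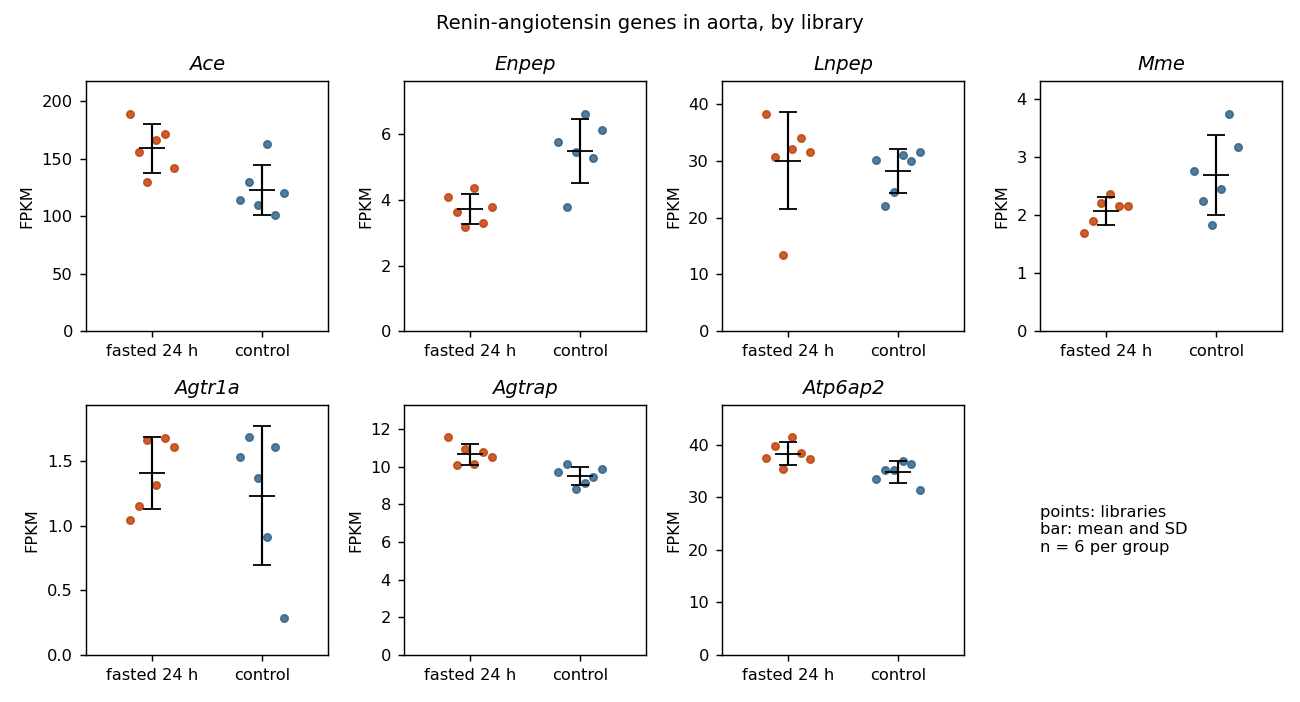
FPKM of each gene in every library, 6 fasted libraries left of 6 controls, with the mean and SD as black bars and a linear axis from 0. Ace and Agtrap lie higher and Enpep lower in fasted libraries, with overlapping ranges throughout, and Lnpep has 1 low fasted library at 13.45 FPKM.

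The levels spanned a wide range and their order was the same in both groups. Ace was the most abundant, at 159 ± 21.4 FPKM in fasted and 123 ± 21.8 FPKM in control aortae (SD, n = 6 each), above 97.7% of genes in the table in the fasted group and 96.9% in controls. Atp6ap2 and Lnpep followed, at 38.4 ± 2.10 and 30.1 ± 8.58 FPKM in fasted aortae and 34.8 ± 2.07 and 28.3 ± 3.92 FPKM in controls. Their ranges overlapped in both groups, so their order is not resolved. Agtrap came next, then Enpep, Mme and Agtr1a, and in each of these steps the lowest library of the higher gene lay above the highest library of the next, within either group. Agtr1a, at the bottom, averaged 1.41 ± 0.279 FPKM in fasted and 1.23 ± 0.540 FPKM in control aortae, above 13.3% of genes in the fasted group and 11.1% in controls. Between the 7 genes, deviations from the group means correlated over the 12 libraries at most at r = 0.56, between Enpep and Lnpep, and at least at r = -0.59, between Agtr1a and Enpep and between Atp6ap2 and Agtrap.

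Ace, which encodes the enzyme that makes angiotensin II and destroys bradykinin, was higher in fasted aortae. The gene (ENSMUSG00000020681) lies on the plus strand at chr11:105967945-105989964. Its lowest, median and highest libraries were at 129.6, 161 and 189 FPKM in fasted aortae, against 101, 117 and 163 FPKM in control aortae. All 6 fasted libraries exceeded the control median and 3 exceeded every control. The highest control, replicate 4, lay within the fasted range. The mean was 1.29-fold that of controls, with a log2 difference of 0.38 ± 0.12 (95% confidence interval 0.13 to 0.62, limma adjusted p = 0.0247). The call was lost without fasted replicate 1 (0.32, adjusted p = 0.054) or 5 (0.35, adjusted p = 0.0519), and without control replicate 3 (0.35, adjusted p = 0.0527) or 5 (0.32, adjusted p = 0.0554). It was also lost with adipocyte marker levels as covariates, where the difference was larger and its error wider (0.45, adjusted p = 0.104).

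The table lists Ace as a pair of transcripts. Ace-201, the full-length somatic form of 4906 bases with 1312 codons, starts at the annotated beginning of the gene. Ace-203, of 3649 bases, starts downstream at position 105971323 and is annotated as incomplete at its start, and it carries the same pair of zinc sites. Ace-202, the shorter form from the internal promoter with 1 zinc site, is not analysed here. Ace-201 was at 87.4, 93.0 and 111 FPKM in the lowest, median and highest fasted library, against 55.9, 67.1 and 91.99 FPKM in controls. It rose by 0.44 ± 0.10 on the log2 scale (limma adjusted p = 0.0117 over 20599 transcripts, of which 16.2% passed), and kept its call without any single library (0.38 to 0.52). Ace-203 was at 40.3, 68.5 and 78.7 FPKM in the lowest, median and highest fasted library, against 43.9, 50.1 and 71.0 FPKM in controls. Its difference of 0.26 ± 0.16 did not pass (adjusted p = 0.318, 95% confidence interval -0.09 to 0.62). The interval of Ace-203 contains the value of Ace-201, so the transcripts are not shown to differ in their response, and a test of that difference was not run. Ace-203 made up 31.1% to 42.9% of the Ace sum in fasted libraries and 39.8% to 44.6% in controls, with fasted replicate 3 the lowest of the 12 libraries. The sources used here give neither how reads shared by both transcripts were divided nor whether strand was used, so reads of the antisense gene Gm11651, which overlaps Ace, cannot be told apart from those of Ace.

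**Figure D2:**
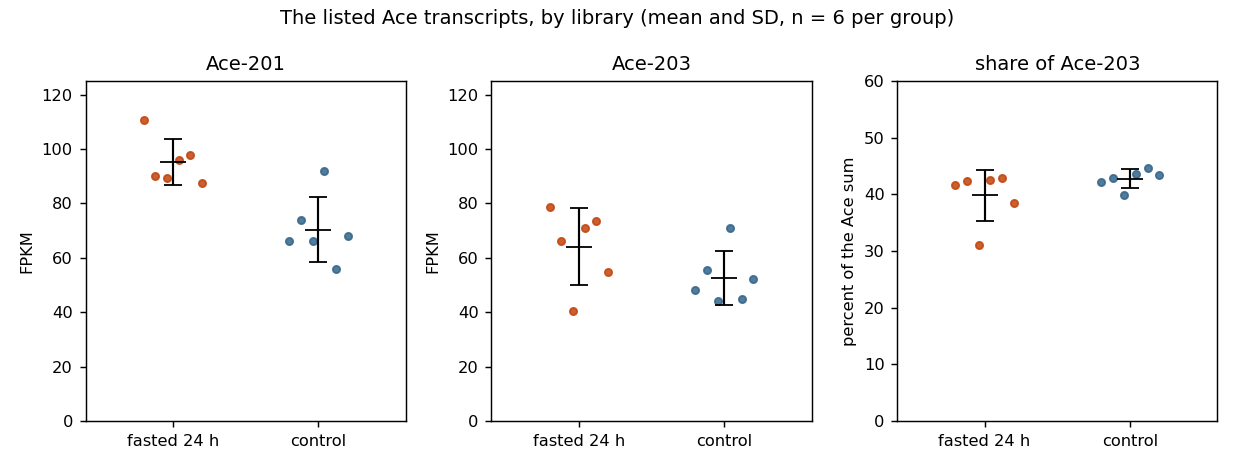
FPKM of Ace-201 and Ace-203 in every library, and the percent of the Ace sum that Ace-203 holds, fasted libraries left of controls, with mean and SD. The ranges of both transcripts overlap between the groups, and fasted replicate 3 has the lowest share of Ace-203, at 31.1%.

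Of 10 endothelial markers, all listed and tested, 2 rose, Pecam1 and Cldn5, and none fell, a smaller share than the 31.7% of all genes. The summed level of the 10 was 232 to 305 FPKM in fasted libraries and 167 to 246 FPKM in controls, and Pecam1 alone averaged 155 FPKM in fasted and 91.0 FPKM in control aortae. Control replicate 4, the highest control for Ace, was also the highest control for that sum, at 246 FPKM. It was the highest control for the macrophage (255 FPKM) and erythroid (1868 FPKM) marker sums as well. Among fasted libraries, Ace was highest in replicate 1, whose endothelial sum was 261.5 FPKM, whereas that sum was highest in replicate 5, at 305 FPKM. The other 8 endothelial markers did not pass, with log2 differences between -0.08 (Tek, adjusted p = 0.649) and 0.47 (Kdr, adjusted p = 0.06), and Tie1 and Emcn were also slightly below 0. White and general adipocyte markers, 9 of 10 listed, rose in 5 and fell in none, and their sum of 293 to 552 FPKM in fasted libraries lay wholly above the 135 to 212 FPKM in controls. Most of that sum came from Fabp4, at 195 FPKM in fasted and 67.8 FPKM in control aortae, and Plin4, at 119.5 FPKM in fasted and 67.6 FPKM in control aortae. Adipoq (0.72, adjusted p = 0.164), Plin1 (0.50, adjusted p = 0.205), Cfd (0.59, adjusted p = 0.34) and Retn (-0.11, adjusted p = 0.788) did not pass, and their groups overlapped. Of 6 listed brown adipocyte markers 2 rose, with a sum of 48.0 to 95.5 FPKM in fasted and 33.8 to 62.0 FPKM in control libraries. Smooth muscle markers, which define the tissue, summed to 8444 to 9669 FPKM in fasted libraries and 8582 to 10722 FPKM in controls, with 1 of 8 higher and 1 lower. Their part in the results for Ace, Agtrap and Enpep was not tested, apart from the adipocyte covariates given with each gene. In whole tissue, more cells of a type and more RNA per cell cannot be told apart.

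**Figure D3:**
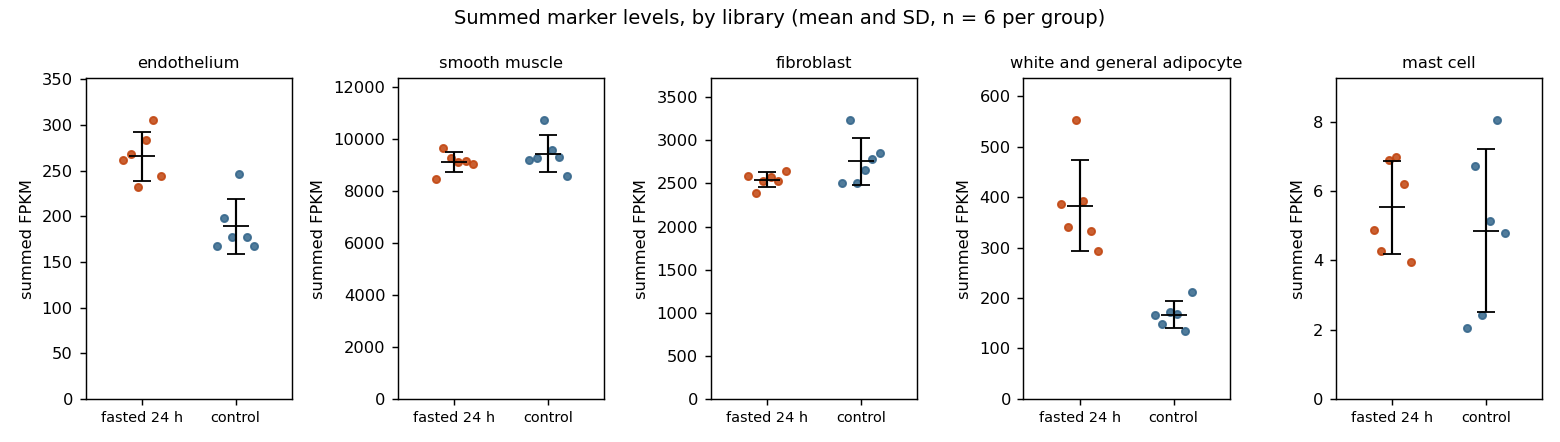
Summed FPKM of marker genes of 5 cell types in every library, fasted left of control, with mean and SD. The adipocyte sums do not overlap, at 293 to 552 FPKM in fasted and 135 to 212 FPKM in control libraries, and the endothelial sums overlap only through control replicate 4.

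By the likeness of their deviations from the group means over the 12 libraries, the genes closest to Ace among 7596 genes that averaged 5 FPKM or more were Epas1, Kdm1a, Irf2 and Fez2, with Pearson r of 0.95, 0.90, 0.90 and 0.89. The median gene had 0.03, and these were picked as the highest of all, so the values are descriptive. Epas1, which encodes a hypoxia-inducible factor subunit abundant in endothelium, was at 48.7 FPKM in fasted and 44 FPKM in control aortae and did not pass (log2 0.15, adjusted p = 0.231). Of the 4, Fez2 passed the test between the groups, and it fell (-0.22, adjusted p = 0.00321).

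Enpep encodes aminopeptidase A, which removes the N-terminal aspartate of angiotensin II to give angiotensin III, and its RNA was lower in fasted aortae. The gene (ENSMUSG00000028024) lies on the minus strand at chr3:129269175-129332720. Its lowest, median and highest libraries were at 3.18, 3.71 and 4.38 FPKM in fasted aortae, against 3.78, 5.62 and 6.64 FPKM in controls. All 6 fasted libraries lay below the control median. The overlap came from control replicate 2, at 3.78 FPKM, since the other 5 controls, at 5.29 FPKM and above, exceeded every fasted library. The mean was 0.677 of the control mean, a log2 difference of -0.45 ± 0.11 (95% confidence interval -0.68 to -0.22, limma adjusted p = 0.00655). The call held without any single library (-0.54 to -0.40, adjusted p 6.78e-04 to 0.0163). With adipocyte covariates the difference was larger and its error wider (-0.49 ± 0.17), and the call was lost (adjusted p = 0.0675). The single listed transcript, Enpep-201, also passed in the test over transcripts (adjusted p = 0.0176).

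Lnpep encodes the insulin-regulated aminopeptidase, which binds angiotensin IV and cleaves oxytocin and vasopressin and travels with the glucose transporter GLUT4 in fat and muscle. The gene (ENSMUSG00000023845, chr17:17521410-17625050, minus strand) was at 13.45, 31.9 and 38.4 FPKM in the lowest, median and highest fasted library, against 22.1, 30.1 and 31.5 FPKM in controls. Fasted replicate 3 was the low one, and 4 of the other 5 fasted libraries exceeded every control. Over all libraries the difference was 0.03 ± 0.20 (95% confidence interval -0.41 to 0.48, adjusted p = 0.922), without fasted replicate 3 it was 0.24 (adjusted p = 0.0737), and with adipocyte covariates 0.42 (adjusted p = 0.333). The listed transcript, Lnpep-201, was matched through another version of its identifier, and is 12052 bases long in GENCODE M21. As a measure of how libraries treat long RNA, chosen after seeing these values, the median log2 deviation of genes whose main transcript is at least 6000 bases was compared with that of genes of at most 1500 bases. The long genes of fasted replicate 3 were lower than its short genes by 0.19 on that scale, the lowest of the 12 libraries. The other fasted libraries were at 0.05 to 0.24 and the controls at -0.16 to 0.09. The measure was thus mostly higher in fasted libraries, with overlapping ranges. Fasted replicate 1, with the highest Lnpep, had the highest length measure, at 0.24. Ace was also highest in fasted replicate 1, at 189 FPKM, and among fasted libraries lowest in replicate 3, at 129.6 FPKM. Its highest control, replicate 4 at 163 FPKM, had a length measure of -0.12. The part of this length trend in the values of Lnpep, Ace or the other genes was not tested.

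**Figure D4:**
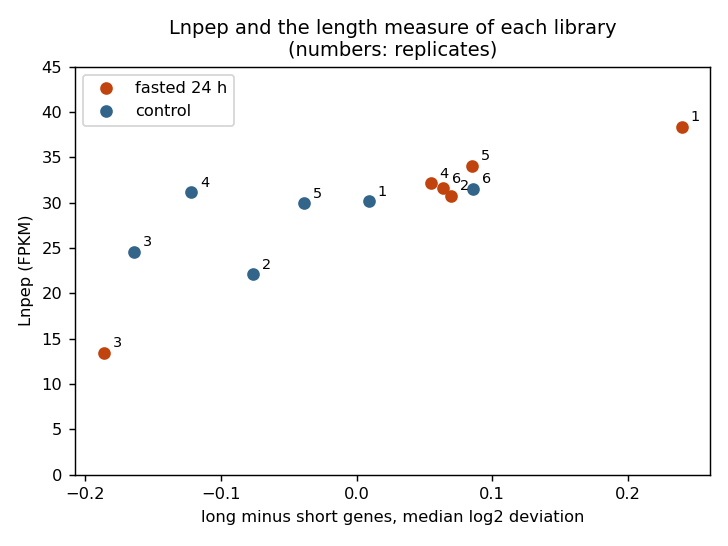
Lnpep in FPKM against the length measure of each library (median log2 deviation of genes of at least 6000 bases minus that of genes of at most 1500 bases), with the replicate number beside each point. Fasted replicate 3, at 13.45 FPKM, is lowest on both axes and fasted replicate 1, at 38.4 FPKM, highest on both.

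Mme encodes neprilysin, a membrane endopeptidase that degrades natriuretic peptides and bradykinin and turns angiotensin I into a dilator heptapeptide. The gene (ENSMUSG00000027820) lies at chr3:63241537-63386030 on the plus strand. Its libraries were at 1.69, 2.15 and 2.36 FPKM at the lowest, median and highest in fasted aortae, against 1.83, 2.60 and 3.74 FPKM in controls. All 6 fasted libraries were below the control median, but the control spread was wide, with replicates 5 and 6 the highest at 3.74 and 3.16 FPKM. The log2 difference of -0.25 ± 0.11 did not pass (95% confidence interval -0.49 to 0.00, limma adjusted p = 0.12). Without control replicate 3, the lowest control, it did (-0.32, adjusted p = 0.0365).

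Agtr1a encodes the type 1A receptor of angiotensin II, the main vasoconstrictor receptor of the peptide in rodents. The gene (ENSMUSG00000049115, chr13:30336441-30382867, plus strand) was at 1.05, 1.46 and 1.68 FPKM in the lowest, median and highest fasted library, against 0.285, 1.45 and 1.69 FPKM in controls. The medians were close, and the lowest control, replicate 6, lay apart from the next at 0.912 FPKM. The log2 difference was 0.15 ± 0.17 (adjusted p = 0.544), with a 95% confidence interval of -0.22 to 0.51, so changes of either sign within those bounds could not be told from 0. Without control replicate 6 the value was -0.0042 (adjusted p = 0.982), and with adipocyte covariates 0.34 (adjusted p = 0.339). The coding sequence of 1077 bases is 90.8% identical in bases to that of Agtr1b, with a longest identical run of 66 bases, so reads of these genes can be shared in part. The genes closest to Agtr1a in their deviations within groups were Mboat7, Ndufs3, Nnt and Ccdc34, with Pearson r of 0.87, 0.87, 0.86 and 0.85 over the 12 libraries. The median gene had 0.02, and these were picked as the highest of 7596, so the values are descriptive. They include control replicate 6, the low library, and how far they rest on it was not tested.

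Agtrap encodes a small membrane protein that binds the tail of the type 1 receptor and promotes its internalisation, and its RNA was slightly higher in fasted aortae. The gene (ENSMUSG00000029007, chr4:148077061-148088031, minus strand) was at 10.1, 10.7 and 11.6 FPKM in the lowest, median and highest fasted library, against 8.85, 9.58 and 10.1 FPKM in controls. All 6 fasted libraries exceeded the control median and 5 exceeded every control. The mean was 12.1% higher, with a log2 difference of 0.15 ± 0.05 (95% confidence interval 0.04 to 0.26, limma adjusted p = 0.0365). The same values did not pass in the test over transcripts, where more features were tested (adjusted p = 0.0698). The call was lost without fasted replicate 1 (0.13, adjusted p = 0.0719), 5 (0.15, adjusted p = 0.0663) or 6 (0.15, adjusted p = 0.054) and without control replicate 1 (0.16, adjusted p = 0.0524), 3 (0.13, adjusted p = 0.0776), 4 (0.14, adjusted p = 0.0704) or 5 (0.15, adjusted p = 0.0666), and with adipocyte covariates (0.12, adjusted p = 0.266).

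Atp6ap2 encodes the prorenin receptor, which is also an accessory subunit of the vacuolar proton pump. The gene (ENSMUSG00000031007, chrX:12587801-12617049, plus strand) was at 35.4, 38.1 and 41.4 FPKM in the lowest, median and highest fasted library, against 31.4, 35.3 and 37.0 FPKM in controls. All 6 fasted libraries exceeded the control median and 5 exceeded every control, as for Agtrap. The log2 difference of 0.14 ± 0.05 (95% confidence interval 0.03 to 0.25) did not pass (limma adjusted p = 0.057). It passed without fasted replicate 3 (0.16, adjusted p = 0.0248) or control replicate 4 (0.15, adjusted p = 0.0451), and with median-of-ratios scaling (0.17, adjusted p = 0.022).

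Since Ace, Agtrap and Enpep passed the test, a promoter window of each is shown, with the matches of 7 motifs. These are the TATA box and motifs of regulators of fasting and stress responses. A second Ace window, at chr11:105974939-105975238, held none of the 7 motifs and is not shown. Each window runs from 250 bases before to 50 bases after the transcript start, in RefSeq sequence of build GRCm38.p6, 5′ to 3′ on the strand of the gene, and capitals mark every motif found.
Ace, chr11:105967698-105967997, plus strand: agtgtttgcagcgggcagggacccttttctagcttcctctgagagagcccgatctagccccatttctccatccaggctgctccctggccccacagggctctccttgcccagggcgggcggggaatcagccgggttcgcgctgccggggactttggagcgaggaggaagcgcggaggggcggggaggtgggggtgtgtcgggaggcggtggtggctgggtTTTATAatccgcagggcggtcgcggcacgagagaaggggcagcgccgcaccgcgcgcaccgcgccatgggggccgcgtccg
Agtrap, chr4:148088015-148088314, minus strand: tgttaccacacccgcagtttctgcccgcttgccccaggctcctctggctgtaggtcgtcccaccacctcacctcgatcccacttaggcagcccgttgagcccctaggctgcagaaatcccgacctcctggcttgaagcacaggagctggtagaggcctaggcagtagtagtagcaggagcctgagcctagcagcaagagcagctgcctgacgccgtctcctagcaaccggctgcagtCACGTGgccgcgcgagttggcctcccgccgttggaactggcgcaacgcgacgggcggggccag
Enpep, chr3:129332700-129332999, minus strand: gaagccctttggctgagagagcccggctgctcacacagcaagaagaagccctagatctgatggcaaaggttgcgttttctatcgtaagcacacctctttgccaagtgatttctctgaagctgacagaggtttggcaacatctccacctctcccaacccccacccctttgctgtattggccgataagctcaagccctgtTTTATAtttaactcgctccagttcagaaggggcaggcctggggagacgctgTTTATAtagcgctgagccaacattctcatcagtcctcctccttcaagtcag
The capitals in Ace and Enpep are TATAAA read on the opposite strand (TTTATA). The Ace match starts 31 bases before the transcript start, and the Enpep matches start 52 bases and 1 base before it. Whether any of them acts as a TATA box was not tested. Of the 32851 RefSeq windows of this length, 13.6% hold TATAAA on either strand. In Agtrap the capitals are the E-box CACGTG, which starts 13 bases before the transcript start and occurs in 7.15% of windows. The E-box was in no other window of the set, and 6 of the 7 genes had a window, Agtr1a being the exception. The inverted repeat bound by the glucocorticoid receptor (0.475% of windows), the FoxO motif GTAAACA (3.65%), the direct repeat of PPAR receptors (0.0396%) and the cyclic AMP element TGACGTCA (1.79%) were not in any window of the set. The glucocorticoid receptor half-site AGAACA (19%) was found in the Atp6ap2 window alone, on the opposite strand. Both strands were read, and no match overlapped another.

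The rest of the pathway was described through a list of 30 further genes. The list was chosen with earlier results of these data known, so its counts are descriptive. Of the 30 genes, 21 were in the table and 20 were tested. Of these 2 rose and 8 fell, 50% against a background of 31.7%, with 13.8% of all genes higher and 17.9% lower. The median log2 difference was 0.04, and 7 of the 20 had groups without overlap, against 17% of all tested genes. Thop1, thimet oligopeptidase, which can turn angiotensin I into the dilator heptapeptide, was at 2.62 ± 0.349 FPKM in fasted and 4.201 ± 0.452 FPKM in control aortae (log2 -0.53 ± 0.08, limma adjusted p = 4.25e-04). Dpp3, a peptidase that degrades angiotensin II, fell (-0.27 ± 0.05, adjusted p = 0.00162), as did Prcp, a carboxypeptidase that clips it (-0.34 ± 0.07, adjusted p = 0.00251). The groups did not overlap in any of the 3. Anpep, aminopeptidase N, which acts after Enpep in the same chain of cleavages, fell (-0.30 ± 0.07, adjusted p = 0.00602), with overlapping groups. Rnpep (-0.35, adjusted p = 0.00546) and the cathepsin Ctsz (-0.21, adjusted p = 0.0076) were lower too, Rnpep with overlapping groups. The glucocorticoid receptor gene Nr3c1 fell too (-0.29, adjusted p = 0.00154). The last of the 8, Prep, only just passed (-0.18, adjusted p = 0.0469), and its call was lost when any of 10 of the 12 libraries was left out (adjusted p 0.0432 to 0.0922 over all 12) with median-of-ratios scaling (-0.16, adjusted p = 0.0695) and with adipocyte covariates (-0.07, adjusted p = 0.649). With the most abundant transcript alone the calls of Prep (-0.18, adjusted p = 0.0598), Prcp (-0.33, adjusted p = 0.139), Rnpep (-0.09, adjusted p = 0.927) and Nr3c1 (-1.05, adjusted p = 0.493) were lost, and with adipocyte covariates those of Nr3c1 (-0.25, adjusted p = 0.0637) and Anpep (-0.28, adjusted p = 0.11).

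The increases were in Ece1, an endothelin-converting enzyme that also cleaves kinins (0.35 ± 0.09, adjusted p = 0.0116), and in Bdkrb2, the constitutive bradykinin receptor. Bdkrb2 was at 1.66, 1.91 and 2.42 FPKM in the lowest, median and highest fasted library, against 0.641, 0.771 and 1.07 FPKM in controls. Its groups did not overlap, and it rose by 0.70 ± 0.08 on the log2 scale (limma adjusted p = 4.50e-05), or by 1.17 with a pseudocount of 0.1. Bdkrb1, the inducible bradykinin receptor, did not pass the filter and is named because its values were seen. It was listed at 0.300 to 0.804 FPKM in fasted libraries and at 0 to 0.178 FPKM in controls, with 2 controls at 0. The table holds transcripts that average 0.5 FPKM or more in 1 or both groups, a level that Bdkrb1 reached through the fasted group, so no test of it is given. Ece1 and Prep lie outside the rule for named genes and were named after their values were seen. Ren1, which encodes renin, was low and did not pass, at 1.42 ± 0.843 FPKM in fasted and 1.22 ± 0.560 FPKM in control aortae (0.08 ± 0.22, adjusted p = 0.813, and 0.54 with adipocyte covariates, adjusted p = 0.236). Cma1, a mast cell chymase that can also make angiotensin II, averaged 1.28 ± 0.436 FPKM in fasted and 0.955 ± 0.772 FPKM in control aortae (0.31 ± 0.25, adjusted p = 0.391). Mast cell markers, Cma1 among them, summed to 3.95 to 6.995 FPKM in fasted libraries and 2.05 to 8.045 FPKM in controls.

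**Figure D5:**
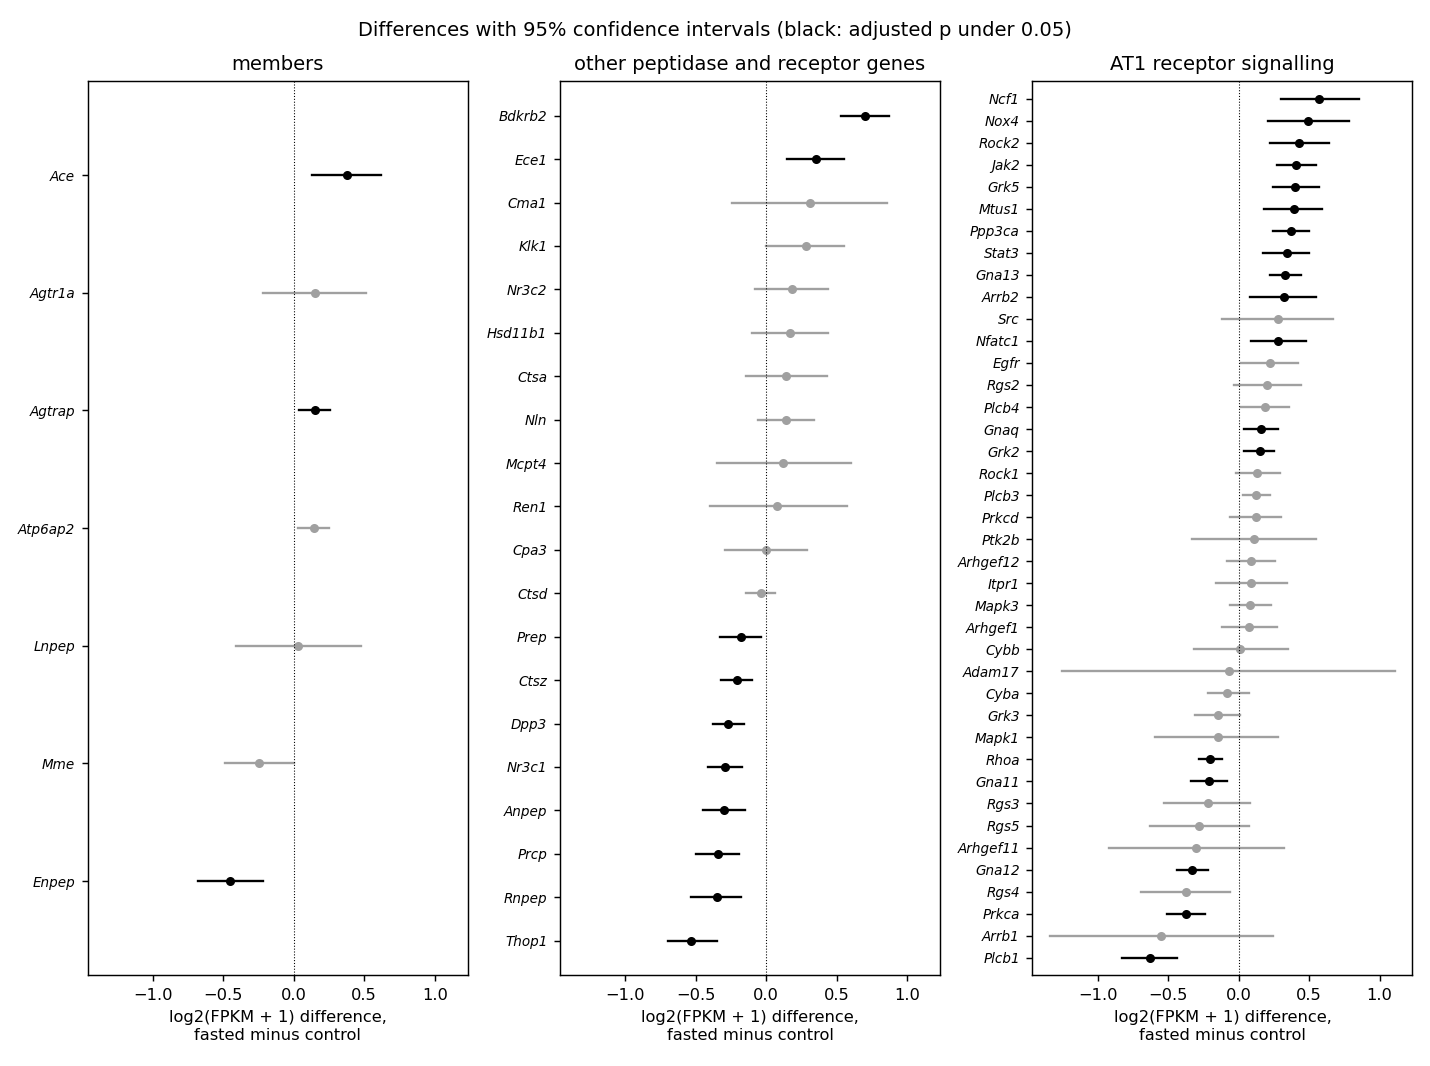
Difference of each gene, fasted minus control in log2(FPKM + 1), with its 95% confidence interval from limma. The intervals of Ace, Agtrap and Atp6ap2, which was not called, lie above 0 and that of Enpep below 0. Those of Lnpep and Agtr1a span 0, and that of Mme, which was not called, runs from -0.49 to 0.00.

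Downstream of the type 1 receptor, 40 of 41 listed transducers and regulators were in the table and tested. This list was also chosen with earlier results of these data known, so its counts are descriptive. Of the 40 genes, 13 rose and 5 fell, 45% against a background of 31.7%, with 13.8% of all genes higher and 17.9% lower. Their median log2 difference was 0.11, and 10 of the 40 had groups without overlap, against 17% of all tested genes. The G protein subunits of the receptor moved in both directions. Gnaq rose and only just passed (0.16 ± 0.06, limma adjusted p = 0.0482), and Gna11 fell (-0.21 ± 0.06, adjusted p = 0.0173), both with overlapping groups. Gna13 was at 15.4 ± 0.774 FPKM in fasted and 11.99 ± 0.676 FPKM in control aortae (0.33 ± 0.05, limma adjusted p = 3.46e-04), and its difference was 0.17 with the most abundant transcript only (adjusted p = 0.0286). Gna12, its close relative, fell (-0.33 ± 0.05, adjusted p = 4.42e-04). Plcb1, a phospholipase that releases inositol trisphosphate, was at 3.93 ± 0.672 FPKM in fasted and 6.60 ± 0.556 FPKM in control aortae (-0.63 ± 0.09, adjusted p = 2.40e-04). The more abundant Plcb4, at 101 FPKM in fasted and 87.7 FPKM in control aortae, was higher but did not pass (0.19 ± 0.08, adjusted p = 0.0792). The same held for Plcb3, at 28.6 FPKM in fasted and 26.2 FPKM in control aortae (0.12 ± 0.05, adjusted p = 0.051). Gnaq, Gna11, Plcb3 and Plcb4 lie outside the rule for named genes and were named after their values were seen. The protein kinase C gene Prkca fell (-0.37 ± 0.06, adjusted p = 6.32e-04). The kinase Jak2 (0.41 ± 0.06, adjusted p = 4.24e-04), the calcineurin subunit Ppp3ca (0.37 ± 0.06, adjusted p = 4.73e-04) and the receptor kinase Grk5 (0.40 ± 0.08, adjusted p = 0.0018) rose. Rgs2 (0.20 ± 0.11, adjusted p = 0.179) and Rgs5 (-0.28 ± 0.16, adjusted p = 0.206), which shorten G protein signals, did not pass.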

How the data were processed

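Poly(A)-selected RNA of aortae was sequenced in 12 libraries, 6 per group. The authors deposited FPKM per transcript. FastQC, cutadapt, HISAT2 and StringTie with build GRCm38 are named, per the submitters' processing notes, without versions or settings. Depth is unknown, so no counting interval is given. The table holds 22699 transcripts, whose FPKM add up to between 299588 and 327492 in each library. Transcripts were summed into 12287 genes through GENCODE M21, which may not be the authors' release. Identifier and version both matched for 21493 transcripts, the identifier alone for 1162, and neither for 44. No libraries were copies, since any pair had 2.34% to 7.06% of genes within 1% of each other. On the first principal component (32.8% of the variance) the groups separated, and the second (12.8%) set fasted replicate 3 apart.

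A gene was tested if 6 or more libraries reached 0.5 FPKM. The test was limma 3.58.1 (R 4.3.3), two-sided and with a trend of variance on mean, applied to log2(FPKM + 1). The p-values were adjusted by the method of Benjamini and Hochberg (Benjamini-Hochberg) over 12063 genes, and a call needed an adjusted p under 0.05. Transcripts were tested alike, and the tests were tried on simulated data. Alternatives changed the pseudocount (0.1, 0.01), the filter (none, 1 FPKM), the scaling, the transcript summary, the block, the variance moderation, adipocyte covariates and single libraries. Named genes were every gene of the set, up to 8 called genes per further list by smallest p, a few regardless of outcome, and the 4 genes most like Ace and Agtr1a. A gene that the rule names is not reported here. The genes, lists and tests were chosen with earlier results of these data known.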

Additional observations from a re-analysis of the deposited data

Results flagged for a closer look

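In 7 of 58 groups of 6 libraries, 1 library lay far from the other 5 relative to the range of the group. Chance alone flags about 1 in 20 groups. Lnpep was at 13.45 FPKM in fasted replicate 3, with the other fasted libraries at 30.8 to 38.4 FPKM. The same library was the lowest fasted one for Jak2, at 16.6 FPKM against 20.4 to 22.4 FPKM in the others, and the highest for Ppp3ca, at 26.2 FPKM against 20.98 to 22.3 FPKM, and for Rnpep, at 14.03 FPKM against 9.73 to 11.1 FPKM. Prkca was highest in fasted replicate 1, at 3.89 FPKM, with the others at 3.09 to 3.33 FPKM. Among controls, Ctsz was at 94.0 FPKM in replicate 2, with the others at 83.0 to 86.2 FPKM, and Ren1 at 2.27 FPKM in replicate 5, with the others at 0.756 to 1.31 FPKM.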

How the results depend on the processing

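Depth is unknown, so how far it limits low genes such as Agtr1a cannot be stated. With adipocyte marker levels as covariates 2001 of all genes passed in place of 3821, and 0 of the 7 renin-angiotensin genes by limma, of which 3 (Ace, Atp6ap2 and Enpep) had an unadjusted p under 0.05. With these covariates the differences of Ace (0.45) and Enpep (-0.49) were larger and that of Agtrap (0.12) smaller. The errors widened to 0.18, 0.17 and 0.07, from 0.12, 0.11 and 0.05. The summed white and general adipocyte markers did not overlap between the groups, so these covariates cannot be fully told apart from the group. The cause of the lost calls was not tested. With single libraries left out, 1 to 4 of the 7 genes passed: 1 without fasted replicate 1, fasted replicate 5 or control replicate 5, and 4 without fasted replicate 3. All genes called then ranged over 3331 to 4168, the further pathway genes over 9 to 10, the receptor signalling genes over 15 to 18 and the transcripts of the set over 2 to 3. The further pathway genes gave 6 calls with the most abundant transcript only, in place of 10. Signs turned in results that did not pass. Over single libraries left out, Lnpep ranged from -0.05 to 0.24, Agtr1a from -0.0042 to 0.21 and Ren1 from -0.04 to 0.22. Lnpep was at -0.05 without fasted replicate 1, -0.02 without fasted replicate 5, -0.03 without control replicate 2 and -0.0034 without control replicate 3, Agtr1a at -0.0042 without control replicate 6, and Ren1 at -0.04 without fasted replicate 2 and -0.03 without fasted replicate 5. No pairing of the samples by replicate number was visible, which does not exclude one. Same-numbered libraries correlated at -0.00634 to 0.0845, with 0 of 6 pairs over 0.1, and 1 of 6 fasted libraries was closest to its own number. With the replicate block 3652 of all genes, 2 of the 7 genes, 9 further pathway genes, 15 receptor signalling genes and 2 transcripts passed, and Agtrap (0.15, adjusted p = 0.0765) and Prep (-0.18, adjusted p = 0.0612) did not. Median-of-ratios scaling moved the median of all genes to 0.000, against -0.02. It gave 1974 genes higher and 1946 lower, against 1667 and 2154, and 4 of the 7 genes passed.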
